A study of Mus musculus with 49 samples.

Results

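The 34 genes described here mark, or act in, the endothelium that lines blood vessels, and they were picked by gene symbol from a table of raw read counts for 49 mouse tumours. All 34 had a row among the 39179 rows of the table. Of these, 33 passed the filter on low counts and were tested. Sox18, a transcription factor of vessel and lymphatic endothelium, did not pass, with 51 counts in all and no count in 28 of the 49 libraries.

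The host mice were Balb/c, and the tumours grew from injected CT26 cells, an established colorectal cancer line of the same species. Treatment began 7 days after tumour cells were injected and lasted 7 days, and the tissue label gives day 7 of treatment while the extraction protocol gives day 4. Vehicle was a mixture of DMSO-PEG400 and water, given daily in 200 µl to the mice of 9 tumours. Celecoxib, an inhibitor of the prostaglandin enzyme COX-2, was given daily at 30 mg/kg in 200 µl to the mice of 7 tumours. An antibody against PD-1, an inhibitory receptor of T cells, was given in 2 doses of 200 µg to the mice of 17 tumours, and both agents were given to the mice of 16 tumours, called the combination below. A 200 µl dose is stated for the other groups and not for anti-PD-1 alone. Comparisons with that group may therefore also differ in solvent and daily dosing. No tumour or host carried a stated genetic change. Each tumour was labelled R or NR for response, terms that the labels do not define. All vehicle and celecoxib tumours were NR, anti-PD-1 tumours were 13 NR and 4 R, and combination tumours were 4 NR and 12 R. The labels do not say that the tumours came from separate mice, so p-values measure the spread between these libraries, which may be partly technical. Tumours are named below by treatment and replicate number.

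Tumour vessels grow from the host's own vessels. Endothelial cells sense the growth factor VEGF through receptor kinases, hold to each other by cadherin and claudin junctions, and are kept quiet by angiopoietin signalling through the Tie receptors. At the growing front, tip cells use Notch ligands and apelin to lead a sprout, and in inflamed vessels selectins catch passing leukocytes, so the endothelium is also the gate through which T cells enter a tumour.

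Libraries were made from bulk tumour RNA with a 3′ tag method that gives 1 tag per transcript. Total counts ran from 4251251 to 13671294 per library, with a median of 7670623. No libraries held identical values. Levels are given in CPM, which are read counts scaled to the library total with a trimmed-mean correction, and per-tumour averages as the mean of log2(CPM + 1). Skeletal muscle, skin or adipocyte genes were high in 16 libraries: 2 vehicle, 2 celecoxib, 5 anti-PD-1 and 7 combination. Each comparison between groups and each tested correlation was also computed without them.

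The genes that define endothelium were present in every treatment. Over all 49 tumours the median level was 64.8 CPM for Pecam1, the platelet-endothelial adhesion molecule, and 25.1 CPM for Cdh5, the cadherin of endothelial junctions. Medians were 44.7 CPM for Kdr, the main VEGF receptor, and 48.2 CPM for Plvap, which forms the diaphragms of leaky capillaries. At the low end, the junction claudin Cldn5 had a median of 0.599 CPM and the apelin receptor Aplnr 1.64 CPM. At the high end, the sialomucin Cd34 had a median of 546 CPM and Esm1, a proteoglycan that tip cells secrete, 217 CPM. In bulk tumours, fewer endothelial cells and less RNA per endothelial cell cannot be told apart. RNA of these genes from other cells, tumour cells among them, cannot be separated either.

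Most of the genes moved together across tumours, but 8 did not. Likeness was described by the Spearman correlation of each gene with the mean of 7 core genes, over 49 libraries that share one normalization. The core genes, Cdh5, Tie1, Esam, Ecscr, Mmrn2, Clec14a and Egfl7, are themselves among the 33. Each core gene was left out of the mean it was compared with. The median rho was 0.63, and 22 of 33 genes were at 0.5 or above. The highest were the orphan receptor Tie1 at 0.82, the receptor partner Ramp2 at 0.81, Aplnr at 0.81, Kdr at 0.78 and the transcription factor Sox17 at 0.77. Below 0.3 were Ecscr at −0.16, Esm1 at −0.12, the leukocyte-catching E-selectin Sele at −0.09, P-selectin Selp at 0.00, the apelin gene Apln at 0.08, Cd34 at 0.20, the clotting factor Vwf at 0.21 and the adhesion molecule Icam2 at 0.25. Ecscr fell in this group although it is one of the 7 core genes.

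**Figure D1:**
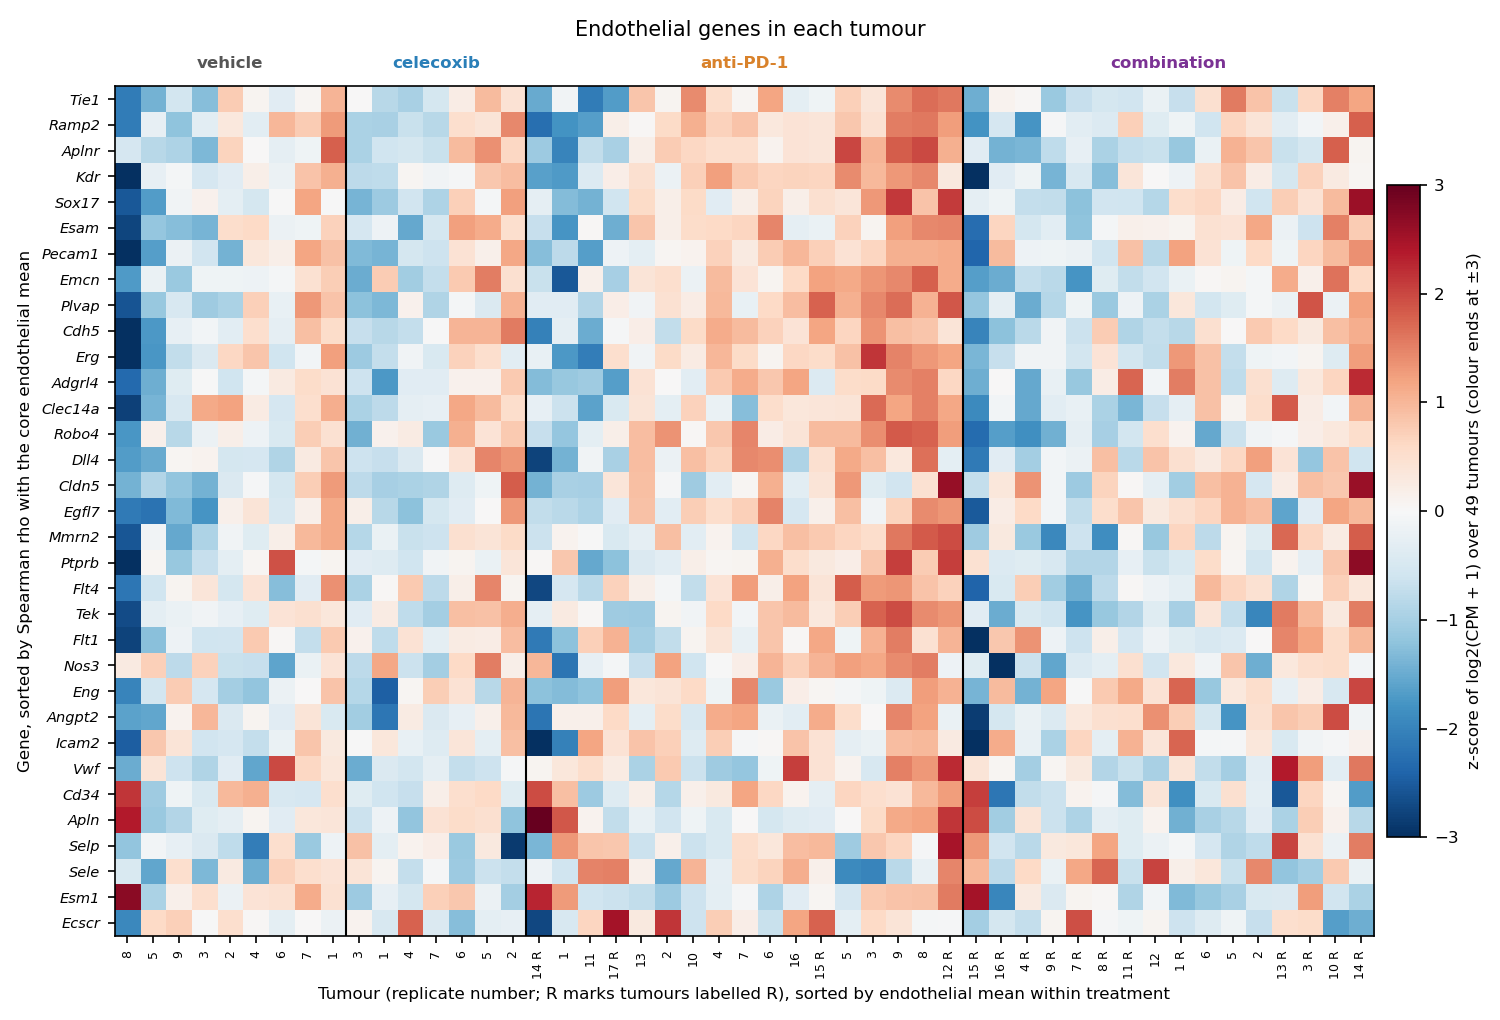
Each cell gives the z-score of log2(CPM + 1) over 49 tumours for 1 of 33 endothelial genes (rows, sorted by Spearman rho with the core mean) in 1 tumour (columns, grouped by treatment and sorted by the mean of the 33 genes). The upper rows change colour together from left to right, while the lower rows, from Icam2 at 0.25 down to Ecscr at −0.16, do not.

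Promoter sequences are shown for 4 genes that the results turn on: Robo4 (rho 0.68) and Tie1, which moved with the core genes, and Esm1 and Apln, which did not. They come from RefSeq on GRCm38.p6, 250 bases before to 50 after the start site, where 19 of the 34 genes matched with 23 promoters. Capitals mark AGGAAG or its reverse complement CTTCCT, 1 form of the site bound by ETS transcription factors such as Erg, searched on both strands. Other forms of that site were not searched for. Robo4 lies on the plus strand at chr9:37401722-37402021, Tie1 on the minus strand at chr4:118489800-118490099, Esm1 on the plus strand at chr13:113209409-113209708 and Apln on the minus strand at chrX:48034804-48035103.
Robo4: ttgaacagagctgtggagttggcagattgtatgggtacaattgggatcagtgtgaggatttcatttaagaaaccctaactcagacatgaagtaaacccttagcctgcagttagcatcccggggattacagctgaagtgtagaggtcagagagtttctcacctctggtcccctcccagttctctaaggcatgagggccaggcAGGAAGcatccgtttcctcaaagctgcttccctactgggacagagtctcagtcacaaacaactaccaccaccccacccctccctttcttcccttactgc
Tie1: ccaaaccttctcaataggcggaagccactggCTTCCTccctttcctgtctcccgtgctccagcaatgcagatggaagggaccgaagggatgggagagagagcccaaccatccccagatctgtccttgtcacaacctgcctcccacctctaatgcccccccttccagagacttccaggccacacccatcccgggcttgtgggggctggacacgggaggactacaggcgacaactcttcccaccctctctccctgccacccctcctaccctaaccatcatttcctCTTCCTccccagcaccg
Esm1: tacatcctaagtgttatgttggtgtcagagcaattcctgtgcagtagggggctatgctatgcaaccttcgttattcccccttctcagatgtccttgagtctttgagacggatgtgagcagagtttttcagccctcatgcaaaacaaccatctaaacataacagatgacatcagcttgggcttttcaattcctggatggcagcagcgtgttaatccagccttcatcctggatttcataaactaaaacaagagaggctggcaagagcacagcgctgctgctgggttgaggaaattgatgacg
Apln: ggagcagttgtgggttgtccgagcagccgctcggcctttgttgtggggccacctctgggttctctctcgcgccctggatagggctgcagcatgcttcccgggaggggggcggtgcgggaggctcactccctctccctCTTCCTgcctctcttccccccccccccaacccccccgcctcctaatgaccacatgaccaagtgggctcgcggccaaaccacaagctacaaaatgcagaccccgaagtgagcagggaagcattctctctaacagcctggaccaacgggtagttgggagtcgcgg
The motif was present once in the Robo4 window, 2 times in Tie1 and once in Apln, and these letters were not in the Esm1 window. Nor were they in the window of Kdr, which moved with the core genes (rho 0.78) and is not printed. Across the endothelial genes the motif was in 13 of 23 promoters (56.5%), against 35.4% of 32851 RefSeq promoters of the same length. The letters ACGTG or CACGT, 1 form of the site of hypoxia-inducible factors, were in 2 of 23 promoters (8.70%), against 19.6% of all. Those promoters were of Adgrl4 and Clec14a, and the letters were not in the windows printed here. Other forms of that site were not searched for, so their absence from these windows is not shown. A match is a description of the letters and not a bound site.

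The mean of the 33 genes per tumour ran from 2.85 to 4.23 in vehicle, with a median of 3.74. It ran from 3.39 to 4.08 in celecoxib (median 3.6), from 3.39 to 4.57 in anti-PD-1 (median 4.03) and from 3.25 to 4.29 in the combination (median 3.76). Anti-PD-1 tumours lay above the vehicle median in 13 of 17 cases, and combination tumours lay below the anti-PD-1 median in 14 of 16. All 4 treatments overlapped, and the SD within treatments was 0.33.

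**Figure D2:**
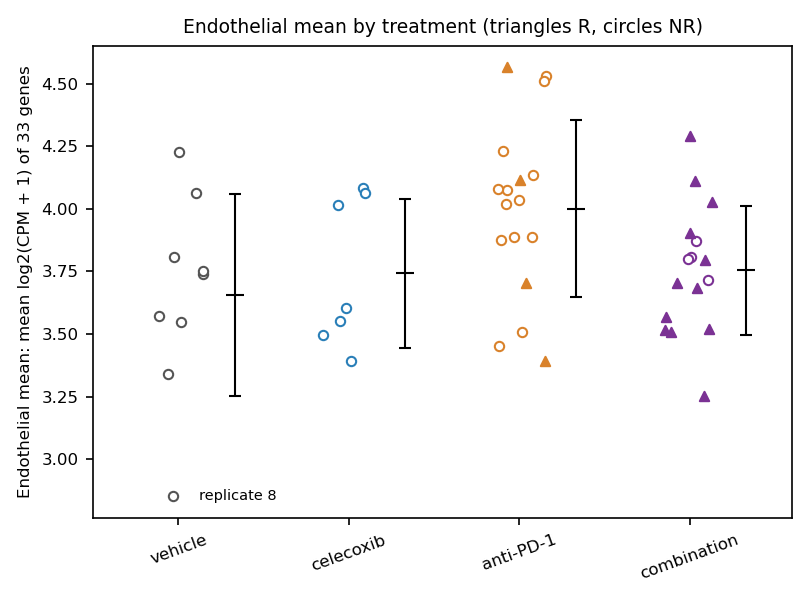
The mean log2(CPM + 1) of 33 endothelial genes is plotted for each tumour by treatment, with open circles for NR, filled triangles for R, and bars for the mean ± SD. Vehicle replicate 8, at 2.85, is the lowest of the 49 tumours, and the anti-PD-1 median of 4.03 is the highest of the 4.

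Vehicle replicate 8 was described apart because of its very low vessel content. It was chosen for this, so its low values for these genes are a description and not a test. Its mean of the 33 genes was 2.85, against 3.34 in the next lowest vehicle tumour. It had the lowest level of the 9 vehicle tumours for 24 of 33 genes and the lowest of all 49 for 14. Ties count as lowest, as for Cldn5, which had no count here or in another vehicle tumour. The share of all genes that were lowest in this library was not computed. The median log2 ratio to the other 8 vehicle tumours was −1.16, on the log2(CPM + 1) scale, and 29 of 33 ratios were negative.

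Among VEGF receptors, Kdr was 11.5 CPM in vehicle replicate 8 against 35.4 to 67 CPM in the other 8, and Flt1, which binds VEGF and acts largely as a decoy, was 21.4 CPM against 31 to 49.9. Junction genes were low as well: Cdh5 was 4.75 CPM against 9.81 to 35.2, and Pecam1 17.6 CPM against 31 to 98.3. Among Tie genes, Tek, the angiopoietin receptor, had no count, against 1.87 to 3.20 CPM, and the phosphatase Ptprb that acts on it was 3.88 CPM against 13.8 to 54.5. The transcription factors Erg and Sox17 were 0.125 and 0.250 CPM, below the other vehicle tumours' lowest of 0.872 CPM for each. The diaphragm gene Plvap was 17.5 CPM against 32.3 to 86.9. For each of these genes vehicle replicate 8 lay below all of the other 8. The nitric oxide synthase gene Nos3, at 4.00 CPM, and Aplnr, at 1.25 CPM, lay within the range of the other 8.

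In the same tumour 3 endothelial genes were the highest of the 9 vehicle tumours. Esm1 was 1768 CPM against 125 to 557 CPM. Apln was 249.6 CPM against 37.3 to 84.4 CPM, and Cd34 was 935 CPM against 400 to 705 CPM. These 3 are among the 8 genes that did not move with the core genes, and which cells gave their RNA was not tested.

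Other cell types and programmes also stood out in vehicle replicate 8, as mean log2(CPM + 1) of lists of genes other than the 33. The list of 14 measured pericyte genes, which mark the cells that wrap capillaries, averaged 1.73 against 2.04 to 2.98. Of these 14 genes, 11 lay below all of the other 8 vehicle tumours and 2 above all of them, with Cspg4 inside their range. Rgs5, the best known of them, was 4.38 CPM against a median of 38, while Ndufa4l2 was 87.2 CPM against a highest of 20.6 and Foxs1 7.75 CPM against a highest of 6.43. Another 36 endothelial genes averaged 3.17 against 3.55 to 4.08. Macrophage genes averaged 5.37 against 6.84 to 8.09 and red blood cell genes 2.67 against 3.46 to 5.04. The 26 hypoxia and glycolysis genes averaged 8.23 against 5.53 to 6.67, and Vegfa, the main vessel growth factor, was 378 CPM against 34.9 to 138. The 30 vessel growth ligands and co-receptors, as a list, did not stand apart: their mean was 4.34 against 4.11 to 4.49, with 9 genes below and 9 above all of the other 8. Among the low ones, the Tek ligand Angpt1 was 0.125 CPM against 0.557 to 4.59, and the receptor Notch1 was 8.38 CPM against 19.1 to 37.9. The part of these lists in the low endothelial values was not tested.

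**Figure D3:**
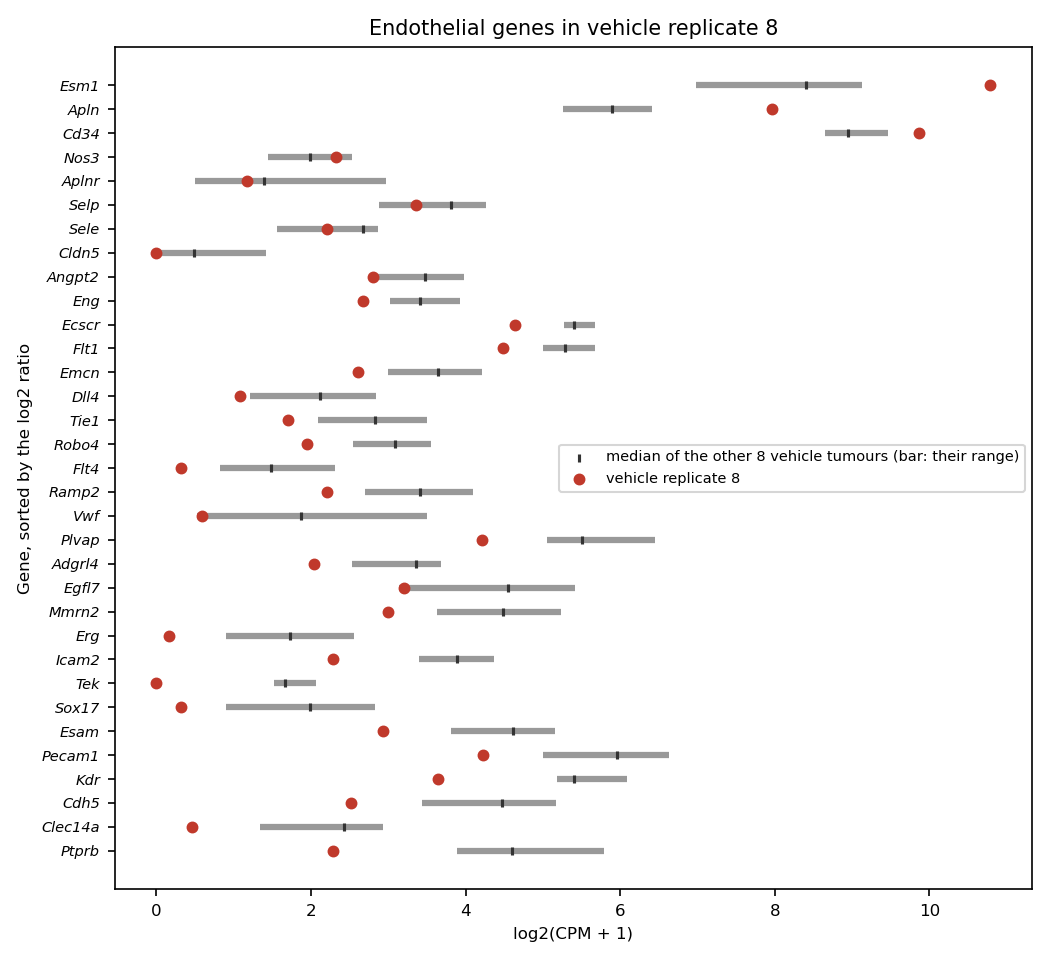
For each of 33 endothelial genes, the red point is the log2(CPM + 1) of vehicle replicate 8, the grey bar is the range of the other 8 vehicle tumours and the tick is their median. The red point lies left of the median for 29 genes, and lies to the right of the bar for Esm1, Apln and Cd34.

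A pair of treated tumours shared part of this pattern, and both were among the libraries with other tissue. Their skeletal muscle means were 4.51 in anti-PD-1 replicate 14 and 7.24 in combination replicate 15, against 1.14 in vehicle replicate 8. The part of muscle RNA in the values below was not tested. The hypoxia and glycolysis mean was highest in vehicle replicate 8 at 8.23, in anti-PD-1 replicate 14 (R) at 8.09 and in combination replicate 15 (R) at 7.83. These 3 had the lowest Cdh5 and the highest Esm1 and Cd34 of the 49 tumours. By the mean of the 33 genes, combination replicate 15 was lower than all but vehicle replicate 8, and 3 tumours were lower than anti-PD-1 replicate 14. The pericyte mean was 1.73 in vehicle replicate 8, 2.37 in combination replicate 15 and 2.85 in anti-PD-1 replicate 14, which was above the median of all tumours, 2.56. Anti-PD-1 replicate 12 (R) had the next highest hypoxia mean, 7.42, and had the highest mean of the 33 genes, 4.57.

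Across the 49 tumours, 8 pairs of genes chosen after their values were seen were examined by permutation. The p-values do not allow for that choice, and the adjustment covers these 8 pairs only, so they are a description. Esm1 and the glucose transporter Slc2a1, which hypoxia induces, had Pearson's r = 0.87 and Spearman's rho = 0.79 (permutation p = 1e-05 for each, the smallest that 100000 resamples give; adjusted p = 4e-05 for rho). Without the 2 tumours farthest from the median, r was 0.82, and within vehicle, celecoxib, anti-PD-1 and combination tumours rho was 0.87, 0.93, 0.74 and 0.67. Apln and Slc2a1 had r = 0.79 and rho = 0.65 (permutation adjusted p = 4e-05 for rho), and r = 0.73 without the 2 farthest, with rho of 0.90, 0.86, 0.72 and 0.34 within treatments. Cd34 and Slc2a1 had r = 0.44 and rho = 0.33 (permutation adjusted p = 0.0417 for rho), and that relation rested on a few tumours, since r was 0.27 (permutation adjusted p = 0.0717) without the 2 farthest. Vwf and the adipocyte gene Adipoq had r = 0.66 and rho = 0.58 (permutation adjusted p = 0.000187 for rho), and r = 0.57 without the 2 farthest, with rho of 0.67, −0.32, 0.51 and 0.74 within treatments. The other 4 pairs did not pass 0.05 for rho after adjustment: Angpt2 with Slc2a1, Vwf with the muscle gene Acta1, Selp with Pf4 and Icam2 with Cd3e. Their Pearson's r did pass, with permutation adjusted p from 0.00354 to 0.0467. Over the 33 tumours without other tissue, none of these 4 passed by either measure, and Cd34 with Slc2a1 had rho = 0.36 (permutation adjusted p = 0.0801). In the same 33 tumours rho was 0.80 for Esm1 with Slc2a1, 0.71 for Apln with Slc2a1 and 0.55 for Vwf with Adipoq.

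**Figure D4:**
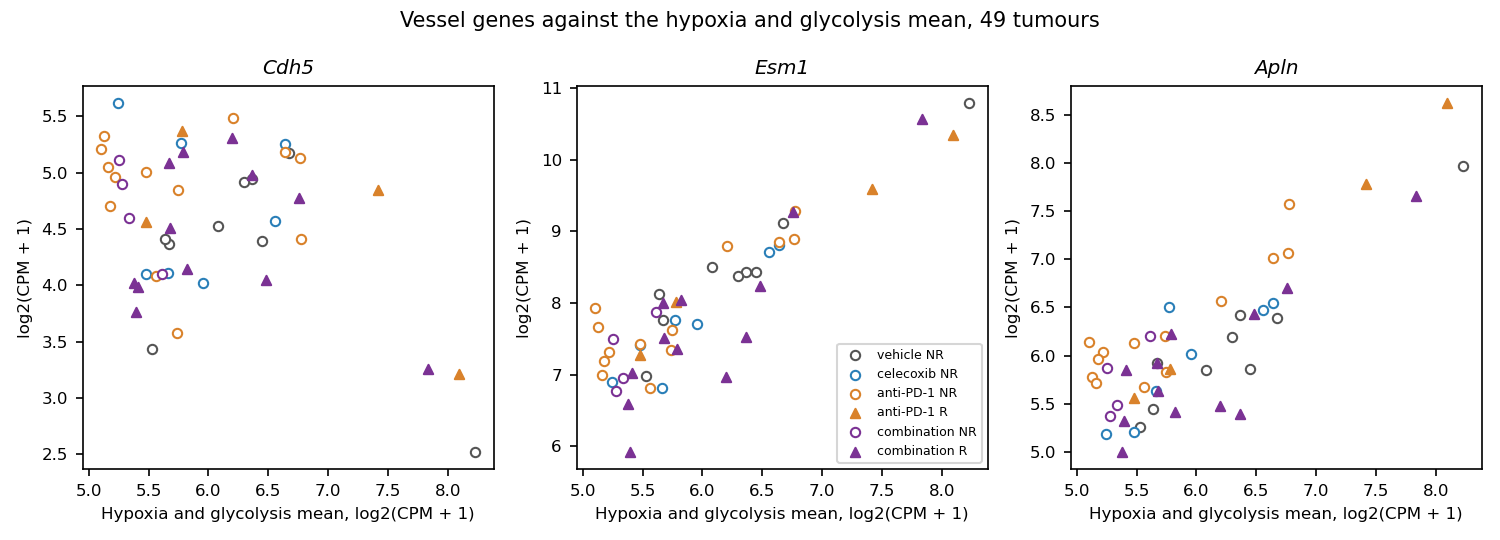
The log2(CPM + 1) of Cdh5, Esm1 and Apln (vertical axes) is plotted against the mean log2(CPM + 1) of 26 hypoxia and glycolysis genes (horizontal axes) for 49 tumours, with colours for treatments, circles for NR and triangles for R. The 3 tumours with means of 7.83 to 8.23 are lowest for Cdh5 and highest for Esm1. Of these, anti-PD-1 replicate 14 and combination replicate 15 are libraries with other tissue.

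Anti-PD-1 against vehicle asks whether the antibody alone went with a change in vessel genes. Daily dosing is stated for vehicle and not for anti-PD-1 alone, and its part was not tested. No endothelial gene passed an adjusted p of 0.05 (edgeR's quasi-likelihood test with Benjamini-Hochberg adjustment over 13726 genes), where 0.0874% of all genes did. At an unadjusted p under 0.05 there were 5 endothelial genes, against 3.48% of all genes, and DESeq2 and limma-voom called 0. The fitted values were positive for 32 of 33 genes, Esm1 being the exception, with a median log2 fold change of 0.41, against 0.01 over all genes.

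By role, the median log2 fold change was 0.36 for the VEGF receptors, 0.41 for the angiopoietin and Tie genes, 0.41 for junction and adhesion genes, 0.31 for surface glycoproteins, 0.45 for guidance and matrix genes, 0.60 for Erg and Sox17, 0.50 for tip cell, apelin and Notch ligand genes and 0.44 for the selectins, Vwf and Nos3. Outside the 33, the other 36 endothelial genes had a median of 0.21 with 30 positive, and the 14 pericyte genes 0.71 with 13 positive. Among lists of other cells and programmes, skeletal muscle genes were positive in 15 of 15 cases (median 2.03), red blood cell genes in 5 of 5 (0.83) and fibroblast genes in 12 of 13 (0.17), while 25 of 26 hypoxia genes (−0.33) and 6 of 7 adipocyte genes (−1.30) were negative. No gene of these lists passed the adjusted threshold, and their part in the endothelial values was not tested.

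Robo4, a guidance receptor that keeps vessels from leaking, was 2.88 to 10.7 CPM in vehicle (median 6.93) and 4.04 to 18.3 CPM in anti-PD-1 tumours (median 11.8). Anti-PD-1 tumours exceeded the highest vehicle tumour in 10 of 17 cases, though the groups overlapped. The log2 fold change was 0.66 (SE 0.25, edgeR adjusted p = 1.0).

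Selp was 6.38 to 18.2 CPM in vehicle (median 12.5) and 8.55 to 38.9 CPM in anti-PD-1 tumours (median 18.3), where 12 of 17 exceeded the vehicle median. Its log2 fold change was 0.58 (SE 0.22, edgeR adjusted p = 1.0). Plvap was 17.5 to 86.9 CPM in vehicle (median 42.2) and 35.6 to 109.9 CPM in anti-PD-1 tumours (median 65.8), and its log2 fold change was 0.52 (SE 0.22, edgeR adjusted p = 1.0). In 16 of 17 anti-PD-1 tumours Plvap was above the vehicle median. Egfl7, a matrix protein of vessels whose gene shares its strand with a microRNA gene, was 7.85 to 41.8 CPM in vehicle (median 18.9) and 15.2 to 49.6 CPM in anti-PD-1 tumours (median 30.9). Its log2 fold change was 0.57 (SE 0.27, edgeR adjusted p = 1.0), and all 4 of these genes overlapped between groups. Without vehicle replicate 8, the fold changes were 0.56 for Robo4, 0.55 for Selp, 0.41 for Plvap and 0.47 for Egfl7, and the median over the 33 genes was 0.34.

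Combination against anti-PD-1 asks what went with adding celecoxib to the antibody, together with daily dosing that is not stated for anti-PD-1 alone. It shares the anti-PD-1 tumours with the comparison above, so the 2 sets of values are not independent. Robo4 fell, and it was the 1 endothelial gene past an adjusted p of 0.05, where 0.503% of all genes passed. Robo4 ranged from 4.04 to 18.3 CPM in anti-PD-1 tumours and from 2.03 to 9.65 CPM in the combination, with medians of 11.8 and 6.08 CPM. All 16 combination tumours were below the anti-PD-1 median, and 10 of 17 anti-PD-1 tumours were above the highest combination tumour. The log2 fold change was −0.91 (SE 0.21, edgeR adjusted p = 0.0336).

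The Robo4 call was near its threshold. It ended when any of 11 of the 33 libraries was left out (adjusted p from 0.0505 to 0.0765): anti-PD-1 replicates 3, 4, 5, 7, 8, 9 and 15, and combination replicates 4, 9, 11 and 16. It also ended when only the libraries of the compared groups were fitted (adjusted p = 0.0529), while DESeq2 (adjusted p = 0.00643) and limma-voom (adjusted p = 0.0424) made it. With the mean of the 7 core endothelial genes as a covariate, the log2 fold change was −0.68 (edgeR adjusted p = 0.0402), and without the 16 libraries with other tissue it was −1.08 (edgeR adjusted p = 0.0377). Robo4 lies on chromosome 9 at 37401897 to 37415115 on GRCm38 and overlaps no other annotated gene.

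**Figure D5:**
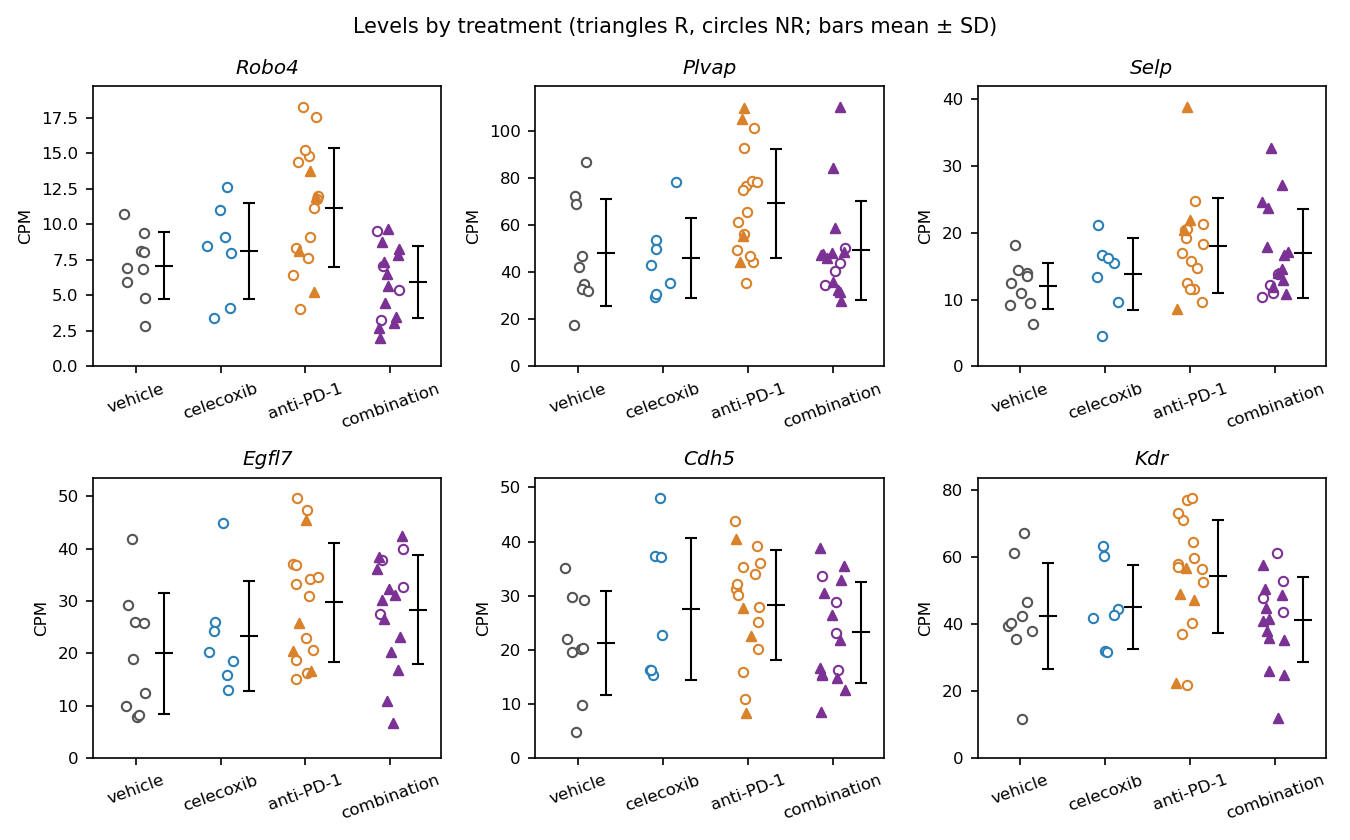
Levels in CPM are plotted for each tumour by treatment for Robo4, Plvap, Selp, Egfl7, Cdh5 and Kdr, with open circles for NR, filled triangles for R, and bars for the mean ± SD. For Robo4, all 16 combination tumours lie below the anti-PD-1 median of 11.8 CPM, and the groups overlap for each of the 6 genes.

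Of the 33 genes, 29 had negative values in combination against anti-PD-1, with a median log2 fold change of −0.27, against −0.00 over all genes, and 8 had an unadjusted p under 0.05, where 17.2% of all genes did. The positive values were those of Cldn5 at 0.27, Sele at 0.16, Eng, a co-receptor for TGF-beta, at 0.13 and Adgrl4, an adhesion receptor of sprouting vessels, at 0.02. By role, medians were −0.40 for the VEGF receptors, −0.20 for angiopoietin and Tie genes, −0.05 for junction genes, −0.30 for surface glycoproteins, −0.27 for guidance and matrix genes, −0.34 for Erg and Sox17, −0.52 for tip cell, apelin and Notch ligand genes and −0.17 for the selectins, Vwf and Nos3.

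Plvap, at 35.6 to 109.9 CPM in anti-PD-1 tumours, was 27.7 to 111 CPM in the combination, with medians of 65.8 and 46.8 CPM. In 14 of 16 combination tumours it was below the anti-PD-1 median. The log2 fold change was −0.49 (SE 0.19, edgeR adjusted p = 0.166). Apln was 46 to 393 CPM in anti-PD-1 tumours (median 69.1) and 31 to 201 CPM in the combination (median 52.6), with a log2 fold change of −0.71 (SE 0.29, edgeR adjusted p = 0.192). Both ranges overlapped, and without anti-PD-1 replicate 14, which held the highest Apln, the value was −0.46. Without combination replicate 15 Apln was −0.93 and did pass (edgeR adjusted p = 0.0480), in a fit that called 449 genes, against 69 with that tumour. Cd34 was 397 to 894 CPM in anti-PD-1 tumours (median 595) and 271 to 917 CPM in the combination (median 482), with 13 of 16 combination tumours below the anti-PD-1 median and a log2 fold change of −0.30 (SE 0.13, edgeR adjusted p = 0.213).

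Other vessel genes in the same comparison were given by lists. Of 14 pericyte genes 13 were negative, with a median log2 fold change of −0.56, and 1 passed: Foxs1, a transcription factor of pericytes, at −1.07 (SE 0.22, edgeR adjusted p = 0.0141). Of 30 ligands and co-receptors of vessel growth 23 were negative with a median of −0.14. In that list 2 passed, the lipase inhibitor Angptl4 at −0.89 (SE 0.16, edgeR adjusted p = 0.00186) and the basement membrane collagen Col4a2 at −0.49 (SE 0.11, edgeR adjusted p = 0.0336). Of the other 36 endothelial genes 22 were negative, with a median of −0.15 and none past the threshold. T cell genes had a median of 1.11 with 11 of 11 positive and none past the threshold, and skeletal muscle genes had a median of 1.51. Their part in the endothelial values was not tested.

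Celecoxib against vehicle gave fitted values for the vessel genes that were centred near 0. No endothelial gene passed the adjusted threshold (edgeR), where 0% of all genes did, and 0 had an unadjusted p under 0.05, against 2.29% of all genes. DESeq2 and limma-voom called 0. The median log2 fold change was 0.06, with 20 genes positive and 13 negative.

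The 4 endothelial genes with the smallest p were Esm1, Vwf, Dll4 and Cdh5. Esm1 was 125 to 1768 CPM in vehicle (median 344) and 112 to 447 CPM in celecoxib (median 207), with a log2 fold change of −0.99 (SE 0.57, edgeR adjusted p = 1.0). Much of that range came from 1 tumour: without vehicle replicate 8 the value was −0.39. Vwf was 0.440 to 10.3 CPM in vehicle (median 1.95) and 0.509 to 2.48 CPM in celecoxib (median 1.58), with a log2 fold change of −0.85 (SE 0.60, edgeR adjusted p = 1.0). The highest Vwf, 10.3 CPM, was in vehicle replicate 6, whose adipocyte genes averaged 5.46, and without the libraries with other tissue the value was 0.04. Dll4, the Notch ligand of tip cells, was 1.13 to 6.17 CPM in vehicle and 2.44 to 8.83 CPM in celecoxib, a log2 fold change of 0.56 (SE 0.42, edgeR adjusted p = 1.0). Cdh5 was 4.75 to 35.2 CPM in vehicle (median 20.3) and 15.3 to 48.0 CPM in celecoxib (median 22.7), with a log2 fold change of 0.37 (SE 0.32, edgeR adjusted p = 1.0), or 0.24 without vehicle replicate 8. All 4 genes overlapped between the groups.

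Combination against vehicle, which shares the vehicle tumours with the comparisons above, gave no endothelial gene past the threshold (edgeR), where 0.0729% of all genes passed. There was 1 gene, Selp, at an unadjusted p under 0.05, against 15.4% of all genes, and DESeq2 and limma-voom called 0. The median log2 fold change was 0.12, with 23 positive and 10 negative. Selp was 6.38 to 18.2 CPM in vehicle and 10.4 to 32.7 CPM in the combination, with medians of 12.5 and 14.3 CPM and a log2 fold change of 0.50 (SE 0.22, edgeR adjusted p = 0.272). The ranges overlapped, and 11 of 16 combination tumours were above the vehicle median. The next 3 genes were Egfl7 at 0.49 (SE 0.27), Eng at 0.36 (SE 0.20) and Cd34 at −0.26 (SE 0.15), with edgeR adjusted p from 0.361 to 0.393. Esm1 was −0.76 (SE 0.45, edgeR adjusted p = 0.402). Without the 16 libraries with other tissue, Esm1 passed as 1 of 1145 genes called, where 10 were called with them. Vehicle replicate 8 stayed in both fits, with Esm1 at 1768 CPM against at most 557 CPM in the other 8 vehicle tumours. The part of that tumour in the call was not tested.

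Combination against celecoxib likewise gave no endothelial gene past the threshold (edgeR), where 0.0364% of all genes passed. These were 5 genes, all lower in the combination, and 3 of them were skin epithelium genes. The skin epithelium mean was 6.78 in celecoxib replicate 3, a library with other tissue. None had an unadjusted p under 0.05, against 4.92% of all genes, and DESeq2 and limma-voom called 0. The median log2 fold change was 0.05. Vwf had the smallest p, with 0.509 to 2.48 CPM in celecoxib and 0.969 to 13.4 CPM in the combination and a log2 fold change of 1.09 (SE 0.55, edgeR adjusted p = 0.918). Without the libraries with other tissue that value was −0.03. Sele was 2.58 to 5.47 CPM in celecoxib and 2.44 to 11.5 CPM in the combination, at 0.57 (SE 0.32). Robo4 was 3.43 to 12.6 CPM and 2.03 to 9.65 CPM in the same groups, at −0.44 (SE 0.27), and Cldn5 was 0.162 to 2.25 CPM and 0.131 to 3.31 CPM, at 0.90 (SE 0.63). Each of these ranges overlapped.

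Whether celecoxib went with a different change when given with anti-PD-1 than without it was tested as an interaction. The anti-PD-1 group, with no daily dosing stated, enters this test too, and the part of that dosing was not tested. No endothelial gene passed (edgeR), where 0% of all genes did. At an unadjusted p under 0.05 there was 1, against 3.01% of all genes, and DESeq2 and limma-voom called 0. The median was −0.30 on the log2 scale, with 28 of 33 negative, and −0.20 without vehicle replicate 8. In the same test skeletal muscle genes were negative in 15 of 15 cases (median −3.34) and pericyte genes in 13 of 14 (−0.88), while T cell genes were positive in 11 of 11 (1.24), hypoxia genes in 25 of 26 (0.42) and adipocyte genes in 6 of 7 (3.28). None of these passed, and their part in the endothelial values was not tested. Robo4 had the lowest p, at −1.09 (SE 0.37, edgeR adjusted p = 1.0), followed by the sialomucin Emcn at −0.79 (SE 0.40), Nos3 at −0.68 (SE 0.35) and Tek at −1.01 (SE 0.56). Tek was 0 to 3.20 CPM in vehicle, 1.14 to 4.51 CPM in celecoxib, 1.06 to 7.18 CPM in anti-PD-1 and 0.392 to 5.80 CPM in the combination, and these ranges overlapped. Nos3 had medians of 3.30, 3.83, 4.78 and 3.29 CPM in the same order.

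Levels of the remaining receptors and of Pecam1 are given in the order vehicle, celecoxib, anti-PD-1 and combination. Flt1 had medians of 36.3, 43.8, 45.6 and 40.9 CPM, within a range of 19.7 to 59.4 CPM over all tumours. Flt4, the VEGF receptor of lymphatic and sprouting endothelium, had medians of 1.56, 2.03, 2.44 and 1.87 CPM. Angpt2, an angiopoietin that can block Tek, had medians of 9.37, 9.72, 11.1 and 12.1 CPM, and Pecam1 57, 49.2, 72.6 and 65.6 CPM. For each of these 4 genes all pairs of treatments overlapped.

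Tumours labelled R and NR were compared within each treatment that held both. In anti-PD-1 tumours, with 4 R and 13 NR, no endothelial gene passed the adjusted threshold (edgeR), where 0% of 14247 genes did. Of the 33 genes, 4 had an unadjusted p under 0.05, against 6.48% of all genes, and DESeq2 and limma-voom called 0. The median log2 fold change was −0.08, with 14 genes positive and 19 negative.

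Apln was 220, 393, 57.1 and 46 CPM in R replicates 12, 14, 15 and 17, against a median of 69.1 CPM in NR tumours, so 2 R tumours were above every NR tumour and 2 were not. Its log2 fold change was 1.06 (SE 0.41, edgeR adjusted p = 0.734). Esm1 followed the same split, at 774, 1307, 258 and 154 CPM in these tumours against an NR median of 195 CPM (1.17, SE 0.56, edgeR adjusted p = 0.757). Without replicate 14 the values were 0.34 for Apln and 0.53 for Esm1. The same R tumours had hypoxia and glycolysis means of 7.42 and 8.09 in replicates 12 and 14, and over the list 26 of 26 hypoxia genes were positive with a median of 1.17. The part of that in the Apln and Esm1 values was not tested.

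Dll4 was 3.18, 0.248, 5.08 and 2.01 CPM in the R tumours, and all 4 were below the NR median of 6.44 CPM. Its log2 fold change was −1.13 (SE 0.48, edgeR adjusted p = 0.734), and −0.76 without replicate 14. Adgrl4 was 12.2, 5.20, 7.78 and 4.39 CPM, with 3 of 4 below the NR median of 12 CPM, a log2 fold change of −0.73 (SE 0.35, edgeR adjusted p = 0.759) and −0.43 without the libraries with other tissue. Robo4 was 13.8, 5.20, 11.9 and 8.14 CPM in the R tumours, inside the NR range.

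In combination tumours, with 12 R and 4 NR, no endothelial gene passed (edgeR), where 0% of all genes did. At an unadjusted p under 0.05 there were 2, against 9.11% of all genes, and DESeq2 and limma-voom called 0. The median log2 fold change was 0.05, with 19 positive and 14 negative. Vwf was 1.96, 0.972, 1.34 and 1.04 CPM in NR replicates 2, 5, 6 and 12, and 0.969 to 13.4 CPM in R tumours (median 2.98), of which 9 of 12 were above every NR tumour. Its log2 fold change was 1.61 (SE 0.70, edgeR adjusted p = 0.519). Selp was 11, 10.4, 12.2 and 13.9 CPM in NR tumours and 10.9 to 32.7 CPM in R tumours (median 16.9), again with 9 of 12 above every NR tumour, at 0.65 (SE 0.30, edgeR adjusted p = 0.535).

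Genes of other tissues also had positive values in the R tumours of the combination. Muscle genes had a median log2 fold change of 3.42 in R against NR, adipocyte genes 2.62 and T cell genes 1.33. Without the libraries with other tissue, Vwf was 0.89 and Selp 0.32, and the part of the other tissue in the first values was not otherwise tested. Dll4 was 7.70, 5.51, 4.46 and 6.32 CPM in NR tumours, and 8 of 12 R tumours (0.726 to 6.46 CPM) were below all of them, at −0.78 (SE 0.44, edgeR adjusted p = 0.579). Kdr was 47.8, 61.1, 52.7 and 43.6 CPM in NR tumours, and 8 of 12 R tumours (12 to 57.5 CPM) were below all of them, at −0.44 (SE 0.28, edgeR adjusted p = 0.618). Robo4 was 7.05, 5.35, 3.27 and 9.53 CPM in NR tumours and 2.03 to 9.65 CPM in R tumours, which overlapped.

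The difference between these R to NR values in the combination and in anti-PD-1 tumours was tested directly. No endothelial gene passed (edgeR), where 0% of all genes did. At an unadjusted p under 0.05 there were 0, against 2.31% of all genes, and DESeq2 and limma-voom called 0. The lowest p was that of Sele, at −1.03 on the log2 scale (SE 0.52), followed by Adgrl4 at 0.87 (SE 0.49), Tek at 0.97 (SE 0.78) and Vwf at 1.10 (SE 0.91), each with an edgeR adjusted p of 1.0. Vwf was −0.58 and Tek −0.77 without the libraries with other tissue.

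The levels of Cdh5 were compared with 13 genes of other cell types over the 49 tumours, as 1 family of permutation tests. The pericyte gene Rgs5 had r = 0.74 and rho = 0.70 (permutation p = 1e-05, the smallest that 100000 resamples give; adjusted p = 0.00013 for rho), and r = 0.72 without the 2 tumours farthest from the median, vehicle replicate 8 and anti-PD-1 replicate 14. Within vehicle, celecoxib, anti-PD-1 and combination tumours the Rgs5 rho was 0.80, 0.86, 0.54 and 0.57. Pdgfrb, the growth factor receptor of pericytes and fibroblasts, had r = 0.61 and rho = 0.55 (permutation p = 5e-05, adjusted p = 0.000325), with r = 0.50 without the 2 farthest and rho of 0.55, 0.68, 0.48 and 0.31 within treatments. The positive relations therefore had the same sign in each treatment, although no rho passed 0.05 after adjustment within 1 treatment. By r, Rgs5 did pass within vehicle (r = 0.95, exact permutation adjusted p = 0.00312) and within celecoxib (r = 0.94, exact permutation adjusted p = 0.0387). The vehicle value includes replicate 8, described for its low vessel genes, which had the lowest Cdh5 and Rgs5 of the 49 tumours. Within vehicle, r without that tumour was not computed, so this value is a description.

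Col1a1, a collagen of fibroblasts, had r = 0.44 and rho = 0.54 with Cdh5 (permutation p = 0.00014, adjusted p = 0.000607), and r = 0.67 without the 2 farthest. Lyve1, of lymphatic vessels and some macrophages, had r = 0.46 and rho = 0.47 (permutation p = 0.00081, adjusted p = 0.00263), and r = 0.48 without the 2 farthest. Cd8a, of cytotoxic T cells, was lower where Cdh5 was higher, with r = −0.36 and rho = −0.45 (permutation p = 0.00121, adjusted p = 0.00315), and r = −0.56 without the 2 farthest. Its rho was −0.23, −0.68, −0.36 and −0.30 within vehicle, celecoxib, anti-PD-1 and combination tumours. The other 8 partners, Vegfa, Slc2a1, Hbb-bs, Adgre1, Mki67, Adipoq, Acta1 and Ptgs2, did not pass 0.05 for rho after adjustment. For Slc2a1, r was −0.37 (permutation adjusted p = 0.0222), and −0.12 without the 2 farthest. For Hbb-bs, r was 0.34 (permutation adjusted p = 0.029), and 0.19 without the 2 farthest. Over the 33 tumours without other tissue, rho with Cdh5 was 0.81 for Rgs5, 0.57 for Pdgfrb, 0.66 for Col1a1, 0.65 for Lyve1 and −0.74 for Cd8a. There the macrophage gene Adgre1 also passed, with r = −0.24 and rho = −0.54 (permutation adjusted p = 0.342 for r and 0.0029 for rho), against r = 0.04 and rho = −0.29 over all 49. The Adgre1 rho also passed without the 2 farthest, at −0.46 (permutation adjusted p = 0.00249), and without vehicle replicate 8, at −0.37 (permutation adjusted p = 0.0196).

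The 11 genes outside the 33 named here as most like the mean of the 33 genes were found over 11376 genes with a mean of at least 2 CPM, by Spearman's rho over 49 tumours. They were Sparcl1 (0.89), Adgrf5 (0.86), Ushbp1 (0.85), Lpar4 (0.83), Col15a1 (0.80), Ldb2 (0.79), Gng11 (0.78), Kif26a (0.78), Arhgef15 (0.77), Myct1 (0.77) and Clec1a (0.76). Ushbp1, Arhgef15 and Myct1 belong to the list of other endothelial genes described above. All of these values come from the same libraries and share their depth and normalization.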

How the data were processed

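Counts per gene were deposited by the authors as raw whole numbers for 49 bulk tumour libraries made with a 3′ tag kit. Per the submitters' processing notes, bcl2fastq, STAR, featureCounts and limma were used on mm10 (GRCm38), while their versions, the annotation release and the strand setting were not given in the sources used here. A second deposited table of log2 CPM values (16559 rows) equals the log2 of count + 0.5 minus a constant per library, within 9.99e-09, and was used for that check only. Of 39179 count rows, 37693 were given a symbol.

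Groups came from the treatment and response labels. Counts were fitted with edgeR 4.0.16 (R 4.3.3; TMM scaling, filterByExpr, robust quasi-likelihood test, Benjamini-Hochberg threshold 0.05), in 1 fit of 4 treatments (13726 genes) and 1 fit of 6 treatment and response groups (14247 genes). Alternatives used DESeq2 1.42.0, limma 3.58.1 (voom), RLE scaling, no filter, only the groups compared, a core endothelial covariate, and fewer libraries. The 16 libraries left out as other tissue had a list mean over 3 for muscle or over 5 for skin or adipocytes. Correlations used SciPy 1.17.1 with 100000 permutations, exact below 10 tumours. The code was tested on simulated data.

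The genes and lists were chosen with earlier results of these data known. Named are, in each comparison, the genes past the threshold and the 4 with the smallest p, plus a panel of 18 genes. From each other list they are the genes past the threshold and up to 2 with the smallest p. Those past the threshold are printed, except 3 skin epithelium genes in combination against celecoxib. Other genes were named after their values were seen. The genes most like the endothelial mean were the 12 with the highest rho, of which 1 is not reported here. Because the strand setting is not given, reads of Angpt2, Cdh5, Plvap, Eng, Cd34, Egfl7, Ecscr, Sox17, Esm1, Dll4, Selp and Nos3 cannot be told apart from those of overlapping genes on the opposite strand. Ptprb, Eng, Ramp2 and Egfl7 overlap a gene on their own strand, and their reads could be split.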

Additional observations from a re-analysis of the deposited data

Results flagged for a closer look

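Single tumours lay far from the rest of their group for 10 of 136 gene and group combinations tested in groups of 4 to 10 tumours, by a gap to the nearest value that was large against the whole range. Chance flags about 1 in 20 such groups. Values are log2(CPM + 1).

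Of the 10, 5 were in vehicle replicate 8 among 9 vehicle tumours. Kdr was 3.64 with the next value at 5.18, Tek was 0 with the next at 1.52, Icam2 was 2.29 with the next at 3.40, and Ecscr was 4.64 with the next at 5.28. Apln was high, at 7.97 with the next at 6.42. The tumour had already been singled out for its low vessel genes, and the 5 values come from the same library, so they are a description and not separate tests. Of these genes, Icam2, Ecscr and Apln are among the 8 that did not move with the core genes.

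Another 3 were in anti-PD-1 replicate 14 among 4 R tumours, the tumour with the second highest hypoxia and glycolysis mean. Flt1 was 4.70 with the next at 5.75, Flt4 was 0 with the next at 1.76, and Icam2 was 1.80 with the next at 4.02.

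The other 2 were single genes. Cldn5 was 1.70 in celecoxib replicate 2 with the next of 7 at 0.68, and Eng was 3.05 in combination replicate 6 with the next of 4 NR tumours at 3.70.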

How the results depend on the processing

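Over all alternatives, the count of endothelial genes past the threshold stayed within 1.5 times the main count in 295 fits and not in 14. The main count was above 0 only in combination against anti-PD-1, so most of the 295 fits kept a count of 0. The median log2 fold change stayed within 1 SD in 307 fits and not in 2. The exceptions were these. In combination against anti-PD-1 the count of 1 became 0 with only the groups compared. It ranged from 0 to 2 when 1 library was left out, and was 0 for 11 of the 33 libraries. In combination against vehicle it became 1 (Esm1) without the libraries with other tissue. The median for anti-PD-1 against vehicle was 0.076 with the core endothelial covariate, which is built from 7 of the genes. The median for the difference of R to NR values was −0.43 without the libraries with other tissue, where Tek was −0.77 and Vwf −0.58. Vwf without those libraries was 0.039 in celecoxib against vehicle and −0.029 in combination against celecoxib. The causes were not tested. Correlations (rho) that changed sign were, for Cdh5, Slc2a1 within vehicle (0.27), Hbb-bs within celecoxib (−0.29), Adgre1 within vehicle (0.05), Mki67 without the libraries with other tissue (0.020) and within anti-PD-1 (0.027) and combination (0.23), Adipoq within combination (0.17), Acta1 within vehicle (−0.05) and celecoxib (−0.14), and Ptgs2 without vehicle replicate 8 (0.029), without the 2 farthest (0.087) and within vehicle (0.18) and combination (0.14). Among the added pairs they were Angpt2 with Slc2a1 without the libraries with other tissue (0.018), without the 3 most hypoxic tumours (0.094), without the 2 farthest (0.026) and within anti-PD-1 (0.12) and combination (0.053), Vwf with Acta1 without the libraries with other tissue (−0.023) and within celecoxib (−0.11) and anti-PD-1 (−0.032), Vwf with Adipoq within celecoxib (−0.32) and Icam2 with Cd3e within celecoxib (−0.46). Leaving out the 3 most hypoxic tumours, the correlations without other tissue and the 8 added pairs were chosen after seeing the data. No paired analysis was possible because the labels give each tumour its own number and no number is shared between groups. Groups of 4 tumours and levels under about 2 CPM limit what these comparisons can detect.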
